A study of Homo sapiens with 42 samples.

Results

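LSP1, JAML, CD101, IPCEF1, SEMA6B and BASP1 are 6 genes out of the 58721 gene rows counted in each deposited table, matched by symbol through GENCODE release 29. They were picked because their transcripts were much higher in leukaemia cells treated with the ENL degrader MS41 in culture, or carrying guides against ENL, than in the matching controls. Those contrasts are therefore given as descriptions, without a test of the 6 genes. All 6 genes had enough counts to enter the fit in each of the 4 tables.

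The series holds 42 RNA-seq libraries in 15 groups from human leukaemia lines grown in RPMI medium, both of which carry a fusion of MLL with AF4. MV4;11, a myeloid line labelled WT, received DMSO or 100 nM of 1 of 3 compounds (MS41, PFI-6, MS41N), and RNA was taken after 6 and after 24 h in triplicate. SEMK2, a B-cell precursor line, received DMSO or 100 nM MS41, also in triplicate, and its labels do not say which time applied. A further 6 libraries were of MV4;11 carrying a guide RNA, in pairs: a control guide and 2 guides against ENL, numbered 1 and 2. The last 6 were of MV4;11 recovered from mice, 3 after vehicle and 3 after MS41; dose, time and host strain are not in the labels. PFI-6 inhibits the YEATS domains of ENL and AF9. The role of MS41N is not given in the labels, whose treatment text writes MS47N in its place. Whether replicates came from separate cultures or mice is not in the labels either, so that each p-value reflects a spread among libraries which may be technical.

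ENL, the product of MLLT1, binds acetylated histones through its YEATS domain and brings elongation factors to active genes, and leukaemias with MLL fusions depend on it. The 6 genes belong to no single pathway. LSP1 encodes a leukocyte protein that binds F-actin. JAML encodes a junctional adhesion molecule-like receptor by which leukocytes bind CXADR on epithelium, and CD101 an immunoglobulin-family surface receptor of myeloid cells and T cells. SEMA6B encodes a transmembrane semaphorin, a ligand of class A plexins. IPCEF1 encodes an adaptor that binds cytohesins, the exchange factors of the small GTPase ARF6. BASP1 encodes a myristoylated protein of the membrane cortex that also acts as a corepressor of WT1.

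On GRCh38 the genes lie on 5 chromosomes. LSP1 (ENSG00000130592) spans chr11:1852970-1892267 on the plus strand and JAML (ENSG00000160593) chr11:118193740-118225094 on the minus strand. CD101 (ENSG00000134256) spans chr1:117001750-117036476 (plus), IPCEF1 (ENSG00000074706) chr6:154154496-154356792 (minus), SEMA6B (ENSG00000167680) chr19:4542593-4559808 (minus) and BASP1 (ENSG00000176788) chr5:17065598-17276843 (plus). All 6 are annotated as protein coding.

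The RefSeq promoter table (GRCh38.p14) held 4 of the 6 genes, JAML, CD101, IPCEF1 and BASP1, with 6 start sites in all. Their upstream sequences are shown because these genes moved together with MS41. Each run below is the 250 bases before a start, 5′ to 3′ on the gene's strand, from chr11:118212947-118213196 (JAML), chr1:117001510-117001759 (CD101), chr6:154356804-154357053 (the most upstream of 3 starts of IPCEF1) and chr5:17216573-17216822 (BASP1). Capitals mark matches, on either strand, to GAGGAAGT (an ETS-type site bound by PU.1), TTGCNNAA (C/EBP), TGTGGT (RUNX) or GGGCGG (SP-type).
JAML: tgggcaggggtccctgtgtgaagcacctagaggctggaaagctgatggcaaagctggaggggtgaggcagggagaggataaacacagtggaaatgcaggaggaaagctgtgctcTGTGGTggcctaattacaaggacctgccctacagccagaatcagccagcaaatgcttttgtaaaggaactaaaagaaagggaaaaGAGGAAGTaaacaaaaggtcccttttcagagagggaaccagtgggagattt
CD101: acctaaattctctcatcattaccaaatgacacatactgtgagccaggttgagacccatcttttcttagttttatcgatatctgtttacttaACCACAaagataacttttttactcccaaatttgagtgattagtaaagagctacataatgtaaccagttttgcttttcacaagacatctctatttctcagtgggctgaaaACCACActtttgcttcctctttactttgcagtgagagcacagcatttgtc
IPCEF1: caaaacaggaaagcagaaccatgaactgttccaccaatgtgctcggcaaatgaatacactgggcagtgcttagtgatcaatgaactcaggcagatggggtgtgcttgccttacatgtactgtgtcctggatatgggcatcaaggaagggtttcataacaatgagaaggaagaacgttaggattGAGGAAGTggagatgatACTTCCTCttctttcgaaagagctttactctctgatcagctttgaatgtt
BASP1: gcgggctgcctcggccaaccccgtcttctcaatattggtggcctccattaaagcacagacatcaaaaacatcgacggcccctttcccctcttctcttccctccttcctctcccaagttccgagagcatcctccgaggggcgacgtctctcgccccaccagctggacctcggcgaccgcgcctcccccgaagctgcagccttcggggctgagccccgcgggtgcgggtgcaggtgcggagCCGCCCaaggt
GAGGAAGT stood 43 bases before the JAML start and in 2 copies, the nearer 42 bases away, before the IPCEF1 start, while 2.17% of 35116 promoters of this length held it. TGTGGT had 1 match in JAML and 2 in CD101, against 11% of all promoters. GGGCGG had 1 match in BASP1, against 42.6%, and TTGCNNAA had its 1 match before the second IPCEF1 start, against 9.05%. Of 5 other motifs searched, TGACAG (13% of all promoters) and CACGTG (6.34%) had no match at any of the 6 starts. CCAAT (32%) matched before the first IPCEF1 start, the third IPCEF1 start and the BASP1 start, and TGATTNAT (2.48%) and TATAAA (10.7%) before the second IPCEF1 start. A match describes letters and not binding, and the windows share no single motif.

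Library totals, in units of 1000000 counts, ranged over 102.3 to 156.5 for the MV4;11 compounds, 155.9 to 230.6 for SEMK2, 77.2 to 87.8 for the guides and 99.5 to 126.7 for mice. Levels are CPM, counts per 1000000 of the TMM-scaled library size. MLLT1, the targeted gene, averaged 236 CPM under the control guide, 186 CPM under ENL guide 1 and 125 CPM under ENL guide 2, so transcript was present with both. The summed level of 10 monocyte and macrophage markers was 76.4 to 79.3 CPM in DMSO and 200 to 209 CPM in MS41 at 24 h. The same sum was 140 to 166 CPM with the control guide and 214 to 244 CPM with the ENL guides, where 2 of the 6 markers tested were called higher and 0 lower (median log2 difference 0.02). From DMSO to MS41 at 24 h, the summed neutrophil and granule markers went from 868 to 925 CPM down to 648 to 690 CPM. Of 8 such genes tested, though, 4 were called higher and 3 lower (median log2 difference 0.24). Summed dendritic markers went from 1313 to 1337 CPM down to 981 to 1035 CPM. Of 6 such genes tested, 3 were called higher and 2 lower (median 0.70). Summed T and NK markers went from 6.16 to 7.16 CPM up to 13.4 to 14.5 CPM, with 1 of 4 tested genes higher and 0 lower. The mitochondrial share of counts was 5.2% to 5.41% in DMSO and 5.86% to 7.04% in MS41 at 24 h, while in the guide libraries it was 3.19% to 3.58% for the control and 3.82% to 4.66% for ENL guides 1 and 2. The part of these markers and shares in the levels of the 6 genes was not tested, and in bulk RNA more cells of a type and more RNA per cell cannot be told apart. B-lineage markers summed to 3.97 to 6.85 CPM in the MV4;11 compound libraries and to 1787 to 1898 CPM in SEMK2.

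**Figure D1:**
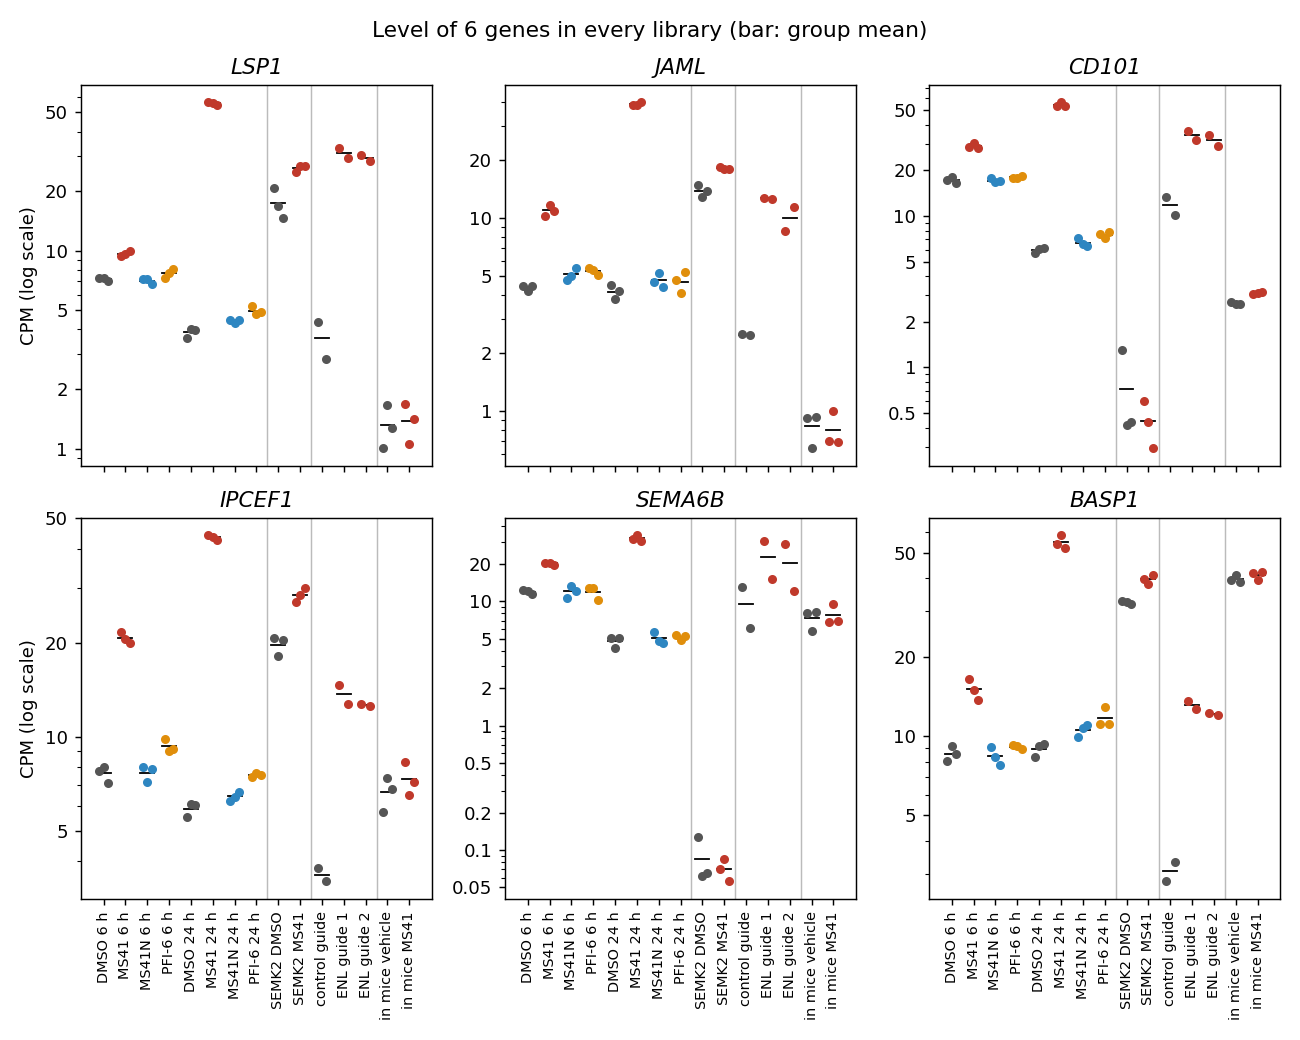
Level of each gene in every library, in CPM on a log axis, by group; grey points are DMSO, control guide or vehicle, red points MS41 or ENL guides, blue points MS41N, orange points PFI-6, and bars are group means. The red points at 24 h stand far above their DMSO points in all 6 panels, and the vehicle and MS41 points of the mice lie side by side.

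After 24 h of MS41 all 6 genes were 6.10 to 14.3 times their DMSO level in MV4;11, by the fitted folds. LSP1 was at 3.63, 4.01 and 3.97 CPM in the DMSO libraries and at 56.2, 55.6 and 54.5 CPM with MS41, a log2 difference of 3.84 (SE 0.06). JAML was at 4.49, 3.79 and 4.18 CPM in DMSO and at 38.4, 38.5 and 39.7 CPM with MS41 (3.23, SE 0.08). CD101 was at 5.68, 6.07 and 6.13 CPM in DMSO and at 53.1, 56.3 and 52.8 CPM with MS41 (3.18, SE 0.06). Every MS41 library of these genes stood above every DMSO library, with narrow spread on both sides. IPCEF1 was at 5.53, 6.06 and 6.03 CPM in DMSO and at 44.2, 43.6 and 42.7 CPM with MS41 (2.89, SE 0.06). SEMA6B was at 5.07, 4.19 and 5.05 CPM in DMSO and at 31.9, 34.0 and 30.6 CPM with MS41 (2.75, SE 0.08). BASP1 was at 8.32, 9.22 and 9.36 CPM in DMSO and at 54.1, 58.2 and 52.0 CPM with MS41 (2.61, SE 0.07). The groups were again apart for these genes. Groups were apart in the higher direction for 25.2% of all 22711 genes tested, and since the genes were picked on this contrast nothing is read from their count. Among 11762 genes with an average log2 CPM of at least 1, 3 had a larger rise than LSP1, 12 than JAML, 14 than CD101, 20 than IPCEF1, 23 than SEMA6B and 28 than BASP1.

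At 6 h the order was different. IPCEF1 led, with 7.78, 7.96 and 7.12 CPM in DMSO and 21.6, 20.5 and 20.0 CPM with MS41, a log2 difference of 1.44 (SE 0.06). JAML followed, with 4.45, 4.21 and 4.43 CPM in DMSO and 10.3, 11.7 and 10.9 CPM with MS41 (1.33, SE 0.08). These 2 genes had 7 and 12 of the 11762 genes above them. BASP1 (0.81, SE 0.07), SEMA6B (0.76, SE 0.07) and CD101 (0.75, SE 0.05) lay close together, and their order was not tested. LSP1, first at 24 h, was last at 6 h: 7.27, 7.24 and 7.03 CPM in DMSO and 9.35, 9.67 and 9.99 CPM with MS41 (0.43, SE 0.06), with 391 genes above it. Groups were apart for all 6 genes at 6 h, and for 18.8% of all genes in that direction.

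Part of the 24 h difference lay in the DMSO level, which was not the same at both times. CD101 averaged 17.3 CPM in DMSO at 6 h and 5.96 CPM at 24 h, a log2 difference of -1.54. SEMA6B averaged 11.9 and 4.77 CPM (-1.32), LSP1 7.18 and 3.87 CPM (-0.89) and IPCEF1 7.62 and 5.88 CPM (-0.37). JAML averaged 4.36 and 4.16 CPM (-0.07), and BASP1 8.60 and 8.97 CPM (0.06). In the first 4 genes each 24 h DMSO library was below each 6 h DMSO library, as in 19.5% of all genes. The MS41 level at 24 h was 14.3 times DMSO of the same time for LSP1 and 7.72 times DMSO of 6 h. For CD101 these ratios were 9.08 and 3.12, for SEMA6B 6.74 and 2.70, and for IPCEF1 7.40 and 5.71. For JAML they were 9.36 and 8.91, and for BASP1 6.11 and 6.37. Between 6 and 24 h of MS41 itself LSP1 was 5.73 times higher, BASP1 3.63 times, JAML 3.55 times, IPCEF1 2.1 times, CD101 1.86 times and SEMA6B 1.60 times.

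The change with time was tested in MS41N and PFI-6, whose libraries are neither MS41 nor DMSO. A choice on large differences at 24 h favours genes whose level without MS41 falls with time. These tests are therefore not independent of the choice. In edgeR's quasi-likelihood test with Benjamini-Hochberg adjustment over all 22711 genes, 4 of the 6 genes fell and 1 rose from 6 to 24 h of MS41N. Of all genes, 15.5% were called lower and 17.9% higher in that comparison. CD101 went from 17.7, 16.8 and 16.9 CPM to 7.17, 6.48 and 6.29 CPM, a change of -1.36 (SE 0.06, adjusted p = 6.92e-24). SEMA6B went from 10.7, 13.2 and 12.1 CPM to 5.66, 4.82 and 4.64 CPM (-1.24, adjusted p = 2.39e-16). The 2 times did not overlap in either gene, nor in LSP1, IPCEF1 and BASP1. The share of all genes apart in this way is not given, so nothing is read from this separation. LSP1 fell by 0.67 on the log2 scale (adjusted p = 3.71e-12), from 7.15, 7.17 and 6.75 to 4.45, 4.30 and 4.48 CPM, and IPCEF1 fell by 0.26 (adjusted p = 0.000821), from 7.96, 7.15 and 7.89 to 6.23, 6.39 and 6.67 CPM. BASP1 rose by 0.32 (adjusted p = 0.000229), from 9.15, 8.33 and 7.80 to 9.91, 10.7 and 11.1 CPM. JAML was at -0.11 (adjusted p = 0.347), with overlapping libraries.

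PFI-6 gave the same pattern with time in its own libraries. CD101 changed by -1.26 (adjusted p = 7.9e-23), SEMA6B by -1.21 (6.08e-16), LSP1 by -0.63 (1.32e-11), IPCEF1 by -0.30 (6.62e-05) and BASP1 by 0.36 (3.94e-05). Of all genes, 15.6% were called lower and 18.2% higher. JAML was at -0.19 and missed the threshold (adjusted p = 0.0694). It was called under DESeq2 (0.0496), with a GC trend removed (0.0369), and without PFI-6 24 h replicate 3 (-0.27, 0.0131). Without PFI-6 24 h replicate 2 it was at -0.0941 (adjusted p = 0.467), and without the other single libraries between -0.22 and -0.16 (0.0602 to 0.188). CD101 and SEMA6B thus had the steepest falls with time in both compounds, and JAML and BASP1 were the genes that did not fall by the main test.

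**Figure D2:**
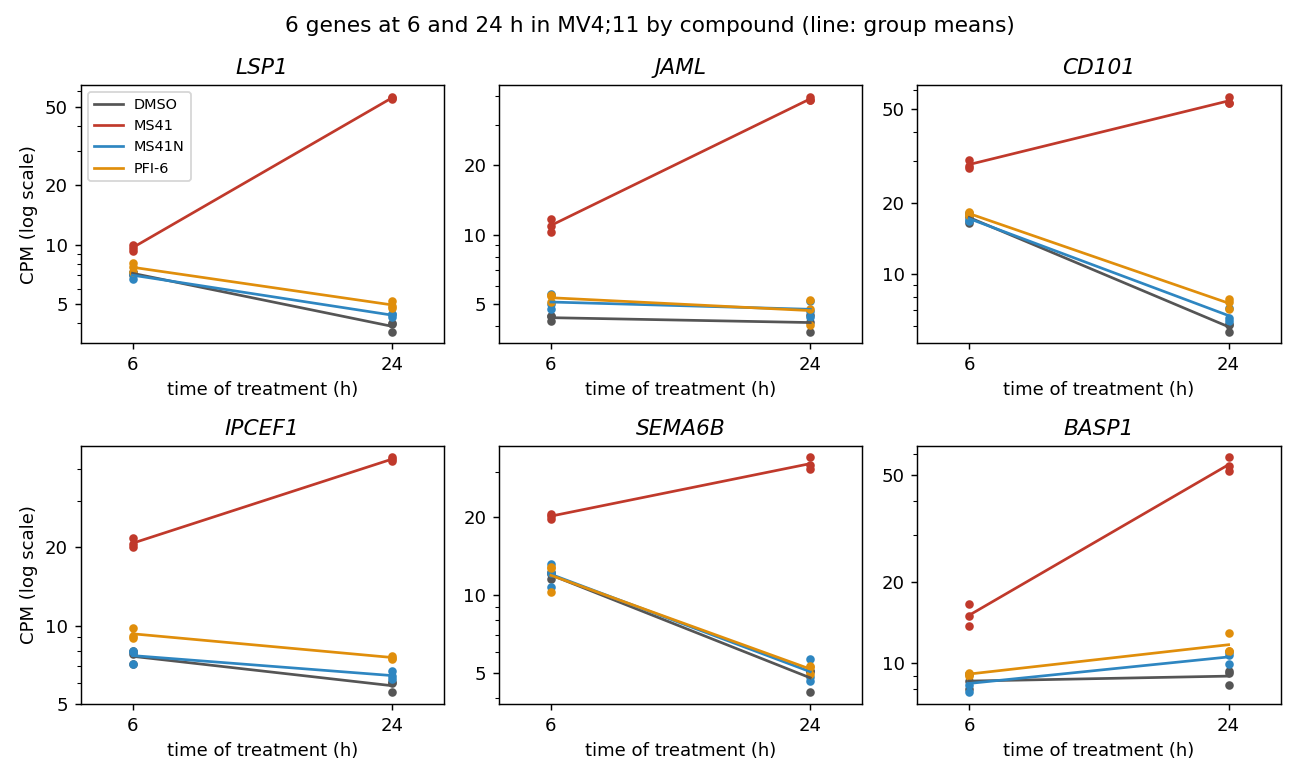
Level of each gene at 6 and 24 h in MV4;11, in CPM on a log axis; points are libraries (3 per compound and time), lines join group means, and colours mark the compound. LSP1, CD101, IPCEF1 and SEMA6B go down from 6 to 24 h in DMSO, MS41N and PFI-6 and up in MS41.

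PFI-6 was compared with MS41N at matched dose and time, a contrast that uses neither DMSO nor MS41 libraries. With edgeR's adjusted p none of the 6 genes was called at 6 or 24 h, where 0.0132% and 0.106% of all genes were called in either direction. At an unadjusted p under 0.05 the test gave 2 of the 6 genes at 6 h (LSP1 and IPCEF1) and 4 at 24 h (LSP1, CD101, IPCEF1 and BASP1). Of all 22711 genes tested, 1393 (6.13%) at 6 h and 2738 (12.1%) at 24 h had such a p, and DESeq2 called 23 and 174 genes in all. IPCEF1 was nearest to a call. It was at 7.96, 7.15 and 7.89 CPM with MS41N and at 9.82, 8.98 and 9.10 CPM with PFI-6 at 6 h, a log2 difference of 0.28 (95% interval 0.16 to 0.40, adjusted p = 0.0783). At 24 h it was at 6.23, 6.39 and 6.67 CPM with MS41N and at 7.44, 7.65 and 7.53 CPM with PFI-6 (0.23, 0.11 to 0.36, adjusted p = 0.124). All PFI-6 libraries of IPCEF1 stood above all MS41N libraries at both times, as they did for 5.98% and 8.61% of all genes. DESeq2 called IPCEF1 at both times (adjusted p = 0.00442 at 6 h and 0.026 at 24 h), and edgeR without the low-count filter called it at 6 h (0.0312).

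The other members differed less between PFI-6 and MS41N. At 24 h LSP1 was at 0.17 (95% interval 0.04 to 0.30), CD101 at 0.17 (0.05 to 0.29), BASP1 at 0.15 (0.01 to 0.29), SEMA6B at 0.03 (-0.15 to 0.20) and JAML at -0.02 (-0.18 to 0.15). BASP1 was at 0.0776 without PFI-6 24 h replicate 2, and SEMA6B at 0.16 with a GC trend removed and at -0.03 to 0.13 when single libraries were left out. At 6 h they lay between -0.01 (SEMA6B) and 0.13 (LSP1). The upper bounds at 24 h stay at or under 0.36 against MS41N, while the MS41 differences at that time, taken against DMSO, began at 2.61. These references differ. Against DMSO the largest PFI-6 difference at 24 h was 0.39, for BASP1, with an upper bound of 0.53. The change of the PFI-6 difference between times ran from -0.08 for JAML to 0.10 for CD101. None of the 6 genes was called in that change by edgeR or DESeq2 or had an unadjusted p under 0.05, and 0% of all genes were called by edgeR.

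Against DMSO, whose libraries served in the choice of the genes, both compounds are given without a test. At 24 h PFI-6 stood at 0.39 for BASP1, 0.36 for LSP1, 0.36 for IPCEF1, 0.33 for CD101, 0.17 for JAML and 0.11 for SEMA6B. MS41N stood at 0.23, 0.19, 0.13, 0.16, 0.19 and 0.08 for the same genes in that order. These values share their DMSO libraries. LSP1, CD101, IPCEF1 and BASP1 had groups apart from DMSO with both compounds at 24 h, against 13.5% of all genes for PFI-6 and 6.32% for MS41N. At 6 h JAML was the one gene with MS41N libraries apart from DMSO (0.22, and 6.71% of all genes). With PFI-6 at 6 h JAML stood at 0.29, IPCEF1 at 0.29, LSP1 at 0.10, BASP1 at 0.09, CD101 at 0.06 and SEMA6B at -0.004.

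**Figure D3:**
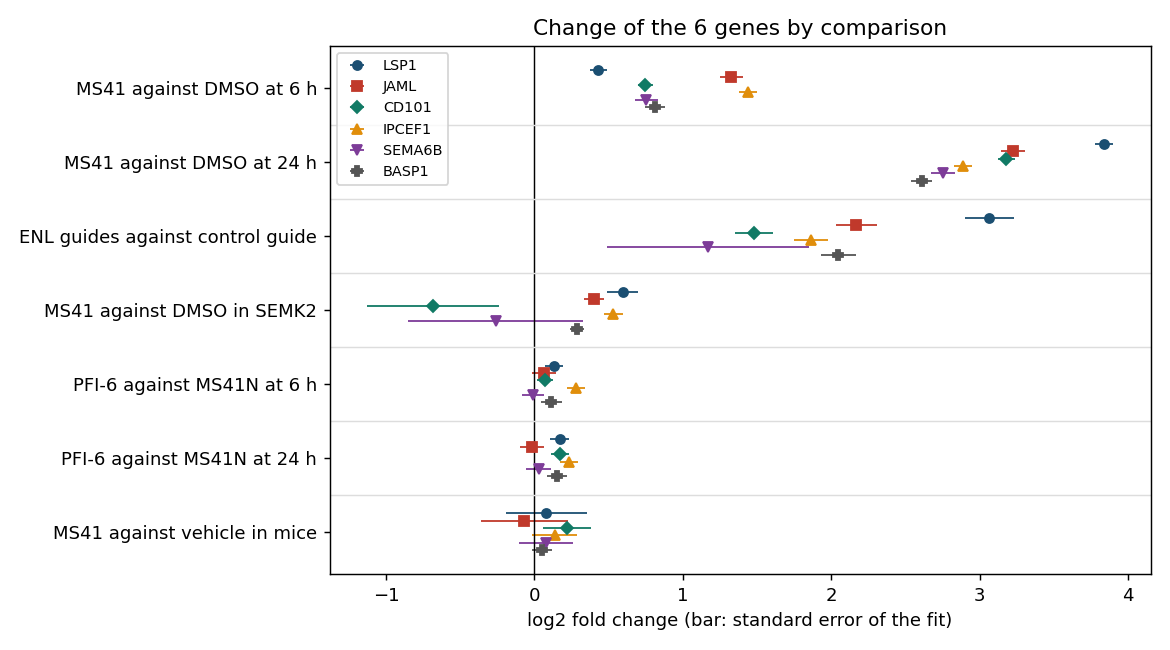
Log2 fold change of each gene in 7 comparisons, with bars of 1 standard error from the fit. The 6 genes lie between 2.61 and 3.84 with MS41 at 24 h and between 1.17 and 3.06 with ENL guides, and they lie within 0.28 of 0 for PFI-6 against MS41N and for MS41 in mice.

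ENL guides gave differences in the same direction in MV4;11, with a different size per gene. LSP1 was at 4.37 and 2.84 CPM with the control guide, at 32.9 and 29.6 CPM with guide 1 and at 30.6 and 28.2 CPM with guide 2, a log2 difference of 3.06 (SE 0.17) for both guides together. JAML was at 2.5 and 2.48 CPM with the control guide, at 12.6 and 12.6 CPM with guide 1 and at 8.57 and 11.4 CPM with guide 2 (2.17). BASP1 was at 2.81 and 3.32 CPM, then 13.7 and 12.7 CPM, then 12.2 and 12 CPM (2.05). LSP1 was first here as with MS41 at 24 h, and its value moved from 3.41 without control guide replicate 1 to 2.80 without replicate 2. IPCEF1 was at 3.78 and 3.44 CPM, then 14.6 and 12.8 CPM, then 12.7 and 12.5 CPM (1.86). CD101 was at 13.4 and 10.2 CPM, then 36.2 and 31.9 CPM, then 34.5 and 29 CPM (1.48). For these 5 genes all ENL guide libraries stood above both control libraries, as in 17.4% of all genes. Guide 2, with less MLLT1 transcript than guide 1, had the lower mean in all 6 genes, but the libraries of both guides overlapped in LSP1, CD101 and SEMA6B, and this order was not tested.

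SEMA6B behaved differently from the rest in the guide libraries. It was at 13 and 6.06 CPM with the control guide, at 30.5 and 15.0 CPM with guide 1 and at 28.8 and 12.1 CPM with guide 2 (1.17, SE 0.68). The difference was 1.83 without control guide replicate 1 and 0.73 without control guide replicate 2. Replicate 1 was 2.15, 2.03 and 2.39 times replicate 2 in the 3 guide groups, so the control library of replicate 1 stood above an ENL guide library of replicate 2. Within a replicate number the ENL guide libraries were 1.99 to 2.48 times their control. With the replicate number as a block the difference was 1.17 with an SE of 0.08. No other member showed such a gap, the widest being 1.54 times in LSP1 with the control guide.

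**Figure D4:**
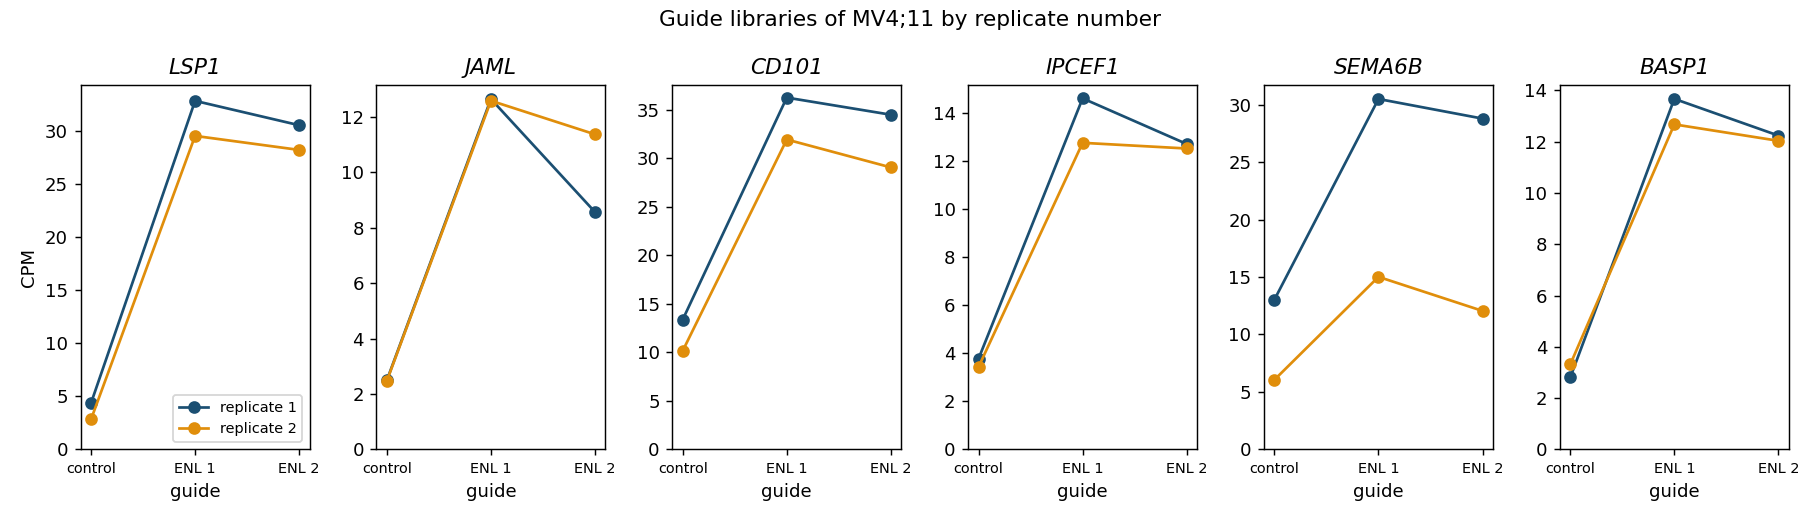
Level of each gene, in CPM on a linear axis from 0, in the guide libraries of MV4;11; each line joins the libraries of 1 replicate number. The 2 lines of SEMA6B run apart by a factor of 2.03 to 2.39 with every guide, while those of the other genes lie closer.

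In SEMK2 the 6 genes split. LSP1 was at 20.6, 16.9 and 14.7 CPM in DMSO and at 24.9, 26.8 and 26.9 CPM with MS41, a log2 difference of 0.59 (SE 0.10). IPCEF1 was at 20.7, 18.1 and 20.4 CPM in DMSO and at 27.0, 28.5 and 30.0 CPM with MS41 (0.53, SE 0.06). JAML was at 14.8, 12.8 and 13.7 CPM and at 18.4, 18.0 and 18.0 CPM (0.40, SE 0.07). BASP1 was at 32.8, 32.6 and 31.8 CPM and at 39.7, 38.1 and 41.0 CPM (0.29, SE 0.05). All MS41 libraries of these 4 genes stood above all DMSO libraries, as in 8.95% of all genes. Their DMSO levels in SEMK2 were 2.42 to 3.77 times those of MV4;11 in DMSO at 6 h and 3.31 to 4.49 times those at 24 h.

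CD101 and SEMA6B were low in SEMK2. CD101 was at 1.30, 0.416 and 0.439 CPM in DMSO and at 0.596, 0.439 and 0.292 CPM with MS41 (-0.68, SE 0.45). SEMA6B was at 0.128, 0.0612 and 0.0652 CPM in DMSO and at 0.0701, 0.0842 and 0.0559 CPM with MS41 (-0.26, SE 0.59), from 9 to 20 counts per library. CD101 had 47 to 203 counts per library. The groups overlapped for both genes. DMSO replicate 1 was the highest library of both genes, and without it the differences were 0.05 and 0.15. The summed level of the monocyte and macrophage markers was also highest in that library, at 60.4 CPM. It was 36.7 and 36.5 CPM in the other DMSO libraries and 34.9 to 36.2 CPM with MS41. CD14, 1 of these markers, was not highest there, at 0.103 CPM against 0.0857 and 0.109 CPM in the other DMSO libraries. The part of these markers in the result was not tested. The SEMK2 and MV4;11 libraries were counted in separate tables, so the size of the MS41 difference was not tested between the lines.

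In mice the MS41 libraries were tested against vehicle, with the replicate number as a block because the deposited values had been adjusted by that number. None of the 6 genes was called by edgeR, none had an unadjusted p under 0.05, and DESeq2 called none, while edgeR called 0.0328% of all 21337 genes. Of all genes, 1623 (7.61%) had an unadjusted p under 0.05 there, and DESeq2 called 69. CD101 was at 2.72, 2.63 and 2.62 CPM with vehicle and at 3.03, 3.12 and 3.15 CPM with MS41, a log2 difference of 0.22 (95% interval -0.14 to 0.58, adjusted p = 0.776). It was the one member whose groups did not overlap, against 14.8% of all genes in that direction. LSP1 was at 1.00, 1.66 and 1.27 CPM with vehicle and at 1.68, 1.06 and 1.42 CPM with MS41 (0.08, -0.52 to 0.69). JAML was at 0.923, 0.641 and 0.936 CPM and at 0.697, 0.998 and 0.693 CPM (-0.07, -0.71 to 0.57). These 2 genes were the lowest in mice and had the widest intervals.

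IPCEF1 was at 5.72, 7.39 and 6.82 CPM with vehicle and at 8.29, 6.5 and 7.13 CPM with MS41 (0.14, -0.19 to 0.47). SEMA6B was at 8.06, 5.79 and 8.14 CPM and at 6.87, 9.45 and 6.90 CPM (0.08, -0.32 to 0.48). BASP1 was at 39.2, 41.1 and 38.6 CPM and at 41.7, 39.5 and 42.2 CPM (0.05, -0.10 to 0.20). In all 6 genes a high vehicle library had a low MS41 library of the same number, and the reverse. This mirroring ran through the whole table, with correlations across genes of -0.993 to -0.967 between the deviations of same-numbered libraries. The upper bounds of the 6 intervals, 0.20 for BASP1 to 0.69 for LSP1, lie below the differences of 2.61 to 3.84 seen with MS41 for 24 h in culture. The library kit differed, though, and dose and time in mice are not in the labels. Vehicle levels, made with a low-input kit, were 4.42 times DMSO at 24 h for BASP1 and 0.20 times for JAML, a difference between tables that was not tested.

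Per kilobase of exon, BASP1 had the highest level of the 6 genes in MV4;11 DMSO at 24 h (4.05 CPM per kb), followed by CD101 (1.56) and SEMA6B (1.08). LSP1 (0.717 ± 0.038) and IPCEF1 (0.694 ± 0.035, SD, n = 3) did not differ beyond their spread, and JAML was lowest (0.484). With MS41 at 24 h the order of CPM per kb was BASP1 (24.7), CD101 (14.1), LSP1 (10.3), SEMA6B (7.29), IPCEF1 (5.13) and JAML (4.53). LSP1 thus moved above SEMA6B and well clear of IPCEF1.

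Across the 24 MV4;11 compound libraries, likeness of pattern was measured as the root mean squared difference between log2 CPM values, each centred on its gene's mean. Among the 6 genes CD101 and SEMA6B were closest (0.16), the pair with the steepest falls in the controls, and CD101 and BASP1 were farthest apart (0.77). Of the other 11762 genes less the members, BASP1 was most like the fatty acid receptor gene CD36 (0.10), ANXA1 (0.16) and CIITA (0.17). IPCEF1 was most like the cannabinoid receptor gene CNR2 (0.20), SAMD9L (0.21) and GPR18 (0.22), and JAML most like IGF1 (0.21), the integrin gene ITGAM (0.25) and CD36 (0.27). LSP1 was most like the lysosomal nuclease gene DNASE2 (0.27), AOAH (0.28) and IGF1 (0.35). CD101 was most like the cystine transporter gene SLC7A11 (0.22), SAMSN1 (0.27) and PTAFR (0.29), and SEMA6B most like SLC7A11 (0.18), KCNQ3 (0.24) and SLC37A2 (0.26). In the guide libraries SLC7A11 was at -1.48, the opposite direction to CD101 and SEMA6B, and the other genes named here were above 0.

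The genes next to the members are given beside them, with no test of a neighbour against its member. TNNI2, the nearest coding gene before LSP1, rose by 1.89 at 24 h of MS41 (adjusted p = 6.76e-09) from 0.458 to 1.70 CPM. PRR33, which overlaps LSP1 on the other strand, went from 0.0103 to 0.370 CPM (5.01, adjusted p = 1.55e-05). Because the strand setting of the counting is not given, PRR33 and LSP1 reads cannot be told apart there. MPZL3, 1596 bases from JAML, rose by 1.24 (adjusted p = 1.32e-16), and the pseudogene HSPE1P18, inside JAML on its strand, went from 0.00569 to 0.263 CPM (5.38, adjusted p = 0.000569). PTGFRN, on the near side of CD101, rose by 0.68 (adjusted p = 8.63e-21), while TTF2 on the far side was at -0.03 (adjusted p = 0.294). LRG1, 2119 bases from SEMA6B, rose by 0.85 (adjusted p = 2.96e-16) and TNFAIP8L1 by 0.70 (adjusted p = 1.22e-15). AL445231.1, antisense to CD101, rose by 0.92 (adjusted p = 0.0096), with the same limit on strand. RGS17, the nearest coding gene on the far side of IPCEF1 but 1023247 bases away, rose by 0.75 (adjusted p = 0.00159), from 0.820 to 1.39 CPM. CNKSR3, 30712 bases from IPCEF1, fell by 0.38 on the log2 scale (adjusted p = 0.0252). MYO10, 129322 bases from BASP1, fell by 0.21 (adjusted p = 1.05e-06). The pseudogene LSP1P4, a copy of LSP1, was at 0.27 (adjusted p = 0.441), and the other annotated copies of LSP1 and BASP1 had no counts in DMSO or MS41 at 24 h.

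Genes related to the members as partners, by family or by field were followed as lists, without the members themselves. At 24 h of MS41, 21.4% of all genes were called higher and 22.9% lower, with a median log2 difference of 0.02. Of 30 leukocyte migration and actin genes, the field of LSP1, 28 rose and 1 fell (median 0.57). Among the rises were the receptor gene FPR1 (4.54, SE 0.86, adjusted p = 1.67e-05) and the integrin gene ITGAM (3.53, SE 0.15, adjusted p = 4e-24). FPR1 lay near the floor, at 0.019 CPM in DMSO and 0.458 CPM with MS41, while ITGAM went from 1.01 to 11.7 CPM. The actin regulator VASP was the gene that fell (-0.22). Of 25 genes in a list of surface receptors drawn up around CD101, which also holds lectins, 19 rose and 2 fell (median 0.70). The largest rises were in SLAMF7 (3.78, SE 0.73, from 0.036 to 0.519 CPM) and SIGLEC10 (2.34, from 2.03 to 10.2 CPM). IGSF3 (-1.10, from 0.320 to 0.150 CPM) and IGSF8 (-0.35) were lower. The monocyte and macrophage markers, whose summed level is given above, had 5 of 8 tested genes higher and 0 lower.

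The other lists moved both ways at 24 h. Of 8 JAML partners and junctional adhesion molecules, 4 rose and 1 fell. CD226 (1.92, from 0.355 to 1.36 CPM) and ESAM (1.76, from 0.127 to 0.433 CPM) were higher and JAM3 (-0.43) lower. Of 24 semaphorins, plexins and neuropilins, 10 rose and 4 fell (median 0.15). NRP1, a coreceptor of class 3 semaphorins, rose by 1.59, and SEMA3A by 1.84 from 0.197 to 0.707 CPM. PLXNA1, a class A plexin, fell by 1.52 and SEMA3F fell by 1.55. Of 22 cytohesins and ARF6 regulators, 12 rose and 5 fell (median 0.20), with PSD3 (1.18) and CYTH4 (1.12) leading and IQSEC1 (-0.40) and CNKSR3 (-0.38) lowest. Of 9 relatives and partners of BASP1, 3 rose and 6 fell (median -0.23). MARCKS rose by 1.56 from a low level (0.201 to 0.598 CPM). WT1, the factor BASP1 represses with, fell from 35.1 to 16.7 CPM (-1.07, adjusted p = 2.01e-24) and the prohibitin gene PHB1 fell by 0.78.

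At 6 h the same lists had 10 rises and 5 falls of 30 migration genes, 10 and 1 of 25 surface receptors, 4 and 0 of 8 JAML partners, 7 and 3 of 24 semaphorin genes, 7 and 3 of 22 cytohesin genes and 0 and 5 of 9 BASP1 relatives, with 12.2% of all genes higher and 13.8% lower. With ENL guides 5.32% of all genes were higher and 4.98% lower. There the rises and falls were 10 and 1 of 28, 10 and 0 of 24, 2 and 0 of 6, 5 and 1 of 23, 5 and 1 of 22, and 0 and 2 of 9 in that order. CLEC12A (1.71) and ITGAM (1.77) rose, and PLXNA1 (-0.56) and WT1 (-0.54) fell. In SEMK2, where 0.84% of all genes were higher and 0.518% lower, the lists had 5 rises and 2 falls in all, including SEMA3A (0.43) and SEMA3G (-0.63). For PFI-6 against MS41N edgeR called 0 of the 118 list genes tested at either time. At an unadjusted p under 0.05 it gave 12 of these 118 at 6 h and 30 at 24 h. Both are larger shares than the 6.13% and 12.1% of all genes. DESeq2 called 0 of the 118 at 6 h and ITGAL at 24 h, out of 23 and 174 genes called in all. For MS41 in mice edgeR and DESeq2 called 0 of 114 list genes. Of these 114, 23 had an unadjusted p under 0.05, a larger share than the 7.61% of all genes. The list medians in mice ran from -0.12 to -0.03, and the direction of the 23 genes is not given.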

How the data were processed

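RNA-seq libraries of the 42 samples were read by the submitters with CASAVA 1.8, HISAT2 2.1.0 and HTSeq 0.11.3 on hg38, per the submitters' processing notes; settings and strand are not given in the sources used here. The 36 culture libraries were deposited by the authors as whole-number counts per gene. The in vivo values were also whole, but they are handled here like estimated counts, because the deposited values had been adjusted by replicate number: over 9506 genes, the mean log2 CPM of same-numbered vehicle and MS41 libraries varied with a root mean squared SD of 0.00798, against 0.054 to 0.0686 for the 5 other matchings. The replicate number was therefore a block in that fit, and this pairing comes from the values, not from the labels. The labels give a SMART-Seq low-input kit for the mice and standard Illumina protocols elsewhere.

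Samples were grouped by their labels. Each table was filtered with filterByExpr, scaled with TMM and fitted by robust quasi-likelihood in edgeR 4.0.16 (R 4.3.3). This left 22711 genes for the 24 MV4;11 compound libraries, 21433 for SEMK2, 17984 for the guides and 21337 for mice. The biological coefficient of variation was 4.77%, 11%, 9.21% and 13% in that order. ENL guides 1 and 2 were averaged before the contrast with the control. A gene was called at a Benjamini-Hochberg adjusted p under 0.05, over every gene tested; intervals have a confidence level of 95%. Alternatives were DESeq2 1.42.0 (its test and its size factors), no low-count filter, removal of a GC trend, a replicate block and leaving out each library. The 6 genes, the gene lists and the tests were chosen with earlier results of these data known. The text names all 6 members, MLLT1, the nearest coding and overlapping genes, annotated copies, the 3 genes of most similar pattern, and of each list up to 2 of the largest called rises and falls. Contrasts that the choice used, or that share its DMSO libraries, carry no test of the members.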

Additional observations from a re-analysis of the deposited data

Results flagged for a closer look

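For 4 of the 6 genes the MS41 libraries and the DMSO libraries moved in opposite directions from 6 to 24 h: every 24 h library was above every 6 h library with MS41 and below every 6 h library with DMSO. The difference between both changes, on the log2 scale, was 3.41 for LSP1, 2.44 for CD101, 2.00 for SEMA6B and 1.45 for IPCEF1. These differences were not tested, because the genes were picked on MS41 against DMSO. Both changes use libraries of that choice, so the pattern may in part restate it. The DMSO change of the same genes was -0.89, -1.54, -1.32 and -0.37. Of all genes, 19.5% had every 24 h DMSO library below every 6 h DMSO library. The share of all genes apart with MS41, or apart in both ways, is not given, so nothing is read from the count of 4.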

How the results depend on the processing

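Counts of called members stayed the same under all alternatives for the changes with time of MS41N (5) and for mice (0). For PFI-6 against MS41N the count was 1 instead of 0 under the DESeq2 test at 6 h, without the low-count filter at 6 h, and under the DESeq2 test at 24 h, in each case IPCEF1. For PFI-6 at 24 h against 6 h it ranged from 5 to 6, with JAML the sixth gene. In the MV4;11 compound and SEMK2 tables same-numbered libraries were not paired by the rule that each of 3 correlations exceed 0.1 (-0.393 to 0.416), and in the guide table, with 2 libraries a group, they were 0.67 for guide 1 and 0.007 for guide 2. With the replicate block the counts were 0, 0, 5, 5 and 0 for PFI-6 against MS41N at 6 and 24 h, both changes with time and the change between times. The median difference of the 6 genes with the replicate block was 0.78 and 3.03 with MS41 at 6 and 24 h, 0.34 in SEMK2 and 1.96 with the guides. The replicate block changed no call of a member, and leaving it out in mice (no replicate block) also gave 0.

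Differences near 0 changed sign when single libraries were left out. Their ranges were -0.0884 to 0.0857 for SEMA6B at 6 h and, at 24 h, -0.10 to 0.0764 for JAML and -0.0301 to 0.13 for SEMA6B for PFI-6 against MS41N, where the GC trend removed gave 0.0759 for SEMA6B at 6 h. For the change between times they were -0.17 to 0.0125 for JAML, -0.0726 to 0.0027 for IPCEF1, -0.0558 to 0.14 for SEMA6B and -0.0369 to 0.0908 for BASP1. In mice they were -0.24 to 0.45 for LSP1, -0.42 to 0.12 for JAML, -0.0584 to 0.30 for IPCEF1 and -0.23 to 0.24 for SEMA6B. In SEMK2 they were -0.96 to 0.0540 for CD101 and -0.44 to 0.15 for SEMA6B. The cause was not tested. With the GC trend removed LSP1 was at 3.96 and SEMA6B at 2.98 for MS41 at 24 h. In SEMK2 the 9 to 20 counts of SEMA6B limit what can be seen.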
